A study of Mus musculus with 4 samples.

Results

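The genes examined were 10 transporters, channels and enzymes that move salt and water across the colonic epithelium. They were chosen by gene symbol and identifier among the 19308 genes that all 4 count tables listed, and all 10 were found and passed the filter on low counts, as did 16956 genes in all. The data were RNA sequencing libraries of mouse colonic mucosa. The compared groups were Itch KO mucosa, from mice with both copies of Itch disrupted, and wild-type (WT) mucosa from C57BL/6 mice, with 2 libraries in each. Itch encodes a ubiquitin ligase whose loss in mice is known for inflammation in several organs. The protocol described only the Itch KO mucosa as inflamed, although the state label read inflammation for every library. Treatment, age and sex were not given, nor was the cell type of the deletion, and nothing said that the libraries of a group came from separate animals. The p-values therefore measure the spread between libraries, which may be technical.

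The colon takes up sodium chloride and water from its contents, and it can also secrete fluid. Absorption at the surface runs through paired exchange of sodium and chloride across the apical membrane and, in the distal colon, through the epithelial sodium channel, with the sodium pump on the basolateral side as the driver. Secretion begins with uptake of chloride from the blood side by the cotransporter that Slc12a2 encodes and ends with its release through the chloride channel that Cftr encodes. Water follows the salt, in part through aquaporins. The members fell into 8 genes of absorption and water movement (Slc26a2, Slc26a3, Slc9a3, Scnn1a, Scnn1b, Car4, Aqp4 and Aqp8) and 2 of chloride secretion (Slc12a2 and Cftr).

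The libraries held 8181193 and 9463759 counts in the Itch KO samples and 9674531 and 12199709 counts in the WT samples over the common genes. Itch itself had 11.9 and 13.4 CPM (read counts scaled to library size) in Itch KO libraries and 204 and 183 CPM in WT libraries, as the labels say. No gene passed 9389 counts in any library. When genes were put into 10 bins of like size by their counts per kilobase of exon, the interquartile range of the log2 fold changes was 0.31 in the densest bin and 1.58 in the sparsest. Car4, Aqp8 and Slc26a3 belonged to the densest bin, Scnn1a, Slc26a2, Aqp4 and Slc12a2 to the next, and no member to the 5 sparsest bins, so the fold changes of most members come from bins where fold changes of all genes were small. The median ratio of the counts of WT library 2 to those of WT library 1 was 1.18 in the densest bin and 1.53 in the sparsest. Differences and levels of the densely covered members may thus be compressed, which was not tested. Leukocyte markers were higher in both Itch KO libraries than in both WT libraries for 10 of 10 genes, against 30.0% of all tested genes. They had a summed level of 1106 and 1426 CPM in Itch KO libraries and 408 and 339 CPM in WT libraries. Pan-epithelial markers overlapped between the groups for 8 of 8 genes, where 7453 of 16956 tested genes overlapped. They summed to 1642 and 1271 CPM in Itch KO libraries and 1438 and 1285 CPM in WT libraries. In bulk mucosa, fewer cells of a type and less RNA per cell cannot be told apart.

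Aqp4, a water channel, was the only one of the 10 members with both Itch KO libraries above both WT libraries. Slc26a2, Cftr and Slc12a2, a sulfate and anion exchanger and the pair of chloride secretion genes, had both Itch KO libraries below both WT libraries. The other 6 members overlapped between the groups. Over all 16956 genes tested, 30.0% lay wholly higher in Itch KO libraries and 26.0% wholly lower, so that 1 higher and 3 lower of 10 is near that background. The log2 fold change of Itch KO over WT was negative for 8 of 10 members with a median of -0.51, against 49.4% of all tested genes and a median of 0.01. Over the alternative settings 6 to 9 members were negative. The median of the members was -0.88 without Itch KO library 1, -0.15 without Itch KO library 2, -0.30 without WT library 1 and -0.54 without WT library 2.

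No member passed the edgeR quasi-likelihood test with Benjamini-Hochberg adjustment over all genes at 0.05, and neither did any other gene (0% called). Itch itself did not pass either, at a log2 fold change of -3.93 (edgeR adjusted p = 0.0922). Failing this test therefore does not show that a gene was unchanged. At an unadjusted p below 0.05 the same test held Aqp4 as higher and Slc26a2 as lower, where 10.2% of all tested genes were higher, 9.52% lower and 19.7% either. DESeq2, run as an alternative on the same genes, called the same 2 members, with 5.24% of all tested genes called higher and 4.76% lower. By DESeq2, Aqp4 rose in Itch KO mucosa (log2 fold change 1.13, adjusted p = 0.00332) and Slc26a2 fell (log2 fold change -0.89, adjusted p = 0.00914).

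**Figure D1:**
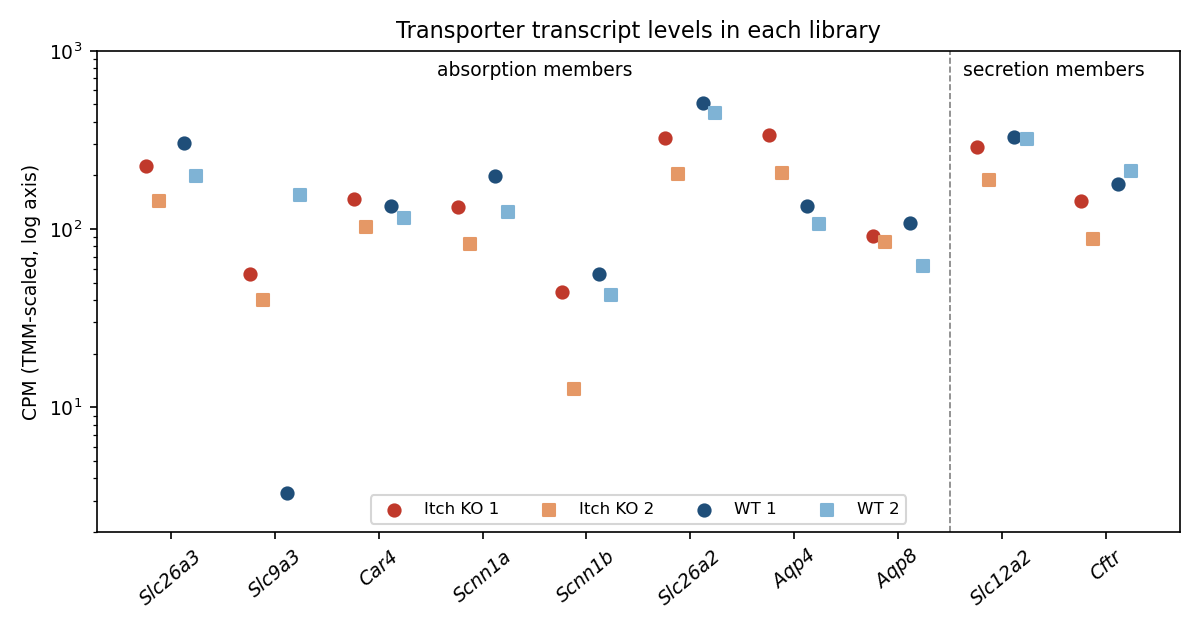
Level of each member in the 4 libraries, in CPM on a log axis, with Itch KO libraries to the left of WT libraries and 1 point per library. Aqp4 sits at 336 and 207 CPM in Itch KO libraries, above 135 and 107 CPM in WT libraries, while the WT points of Slc9a3 lie far apart at 3.31 and 154 CPM.

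Electroneutral uptake of sodium chloride rests on the sodium-hydrogen exchanger NHE3, encoded by Slc9a3, and the chloride-bicarbonate exchanger DRA, encoded by Slc26a3, whose loss in people causes congenital chloride diarrhoea. Neither gene passed the test. Slc26a3 (ENSMUSG00000001225, chromosome 12, 31390871 to 31473917, GRCm38) had 226 and 144 CPM in Itch KO libraries and 305 and 198 CPM in WT libraries. WT library 2 lay between the Itch KO libraries. The averages were 185 ± 58.4 CPM in Itch KO and 251 ± 76.0 CPM in WT (SD, n = 2 each), a log2 fold change of -0.44 with a standard error (SE) of 0.34 (edgeR adjusted p = 0.495). Single libraries moved this value: it was -0.81 without Itch KO library 1, -0.14 without Itch KO library 2, -0.08 without WT library 1 and -0.73 without WT library 2. Surface colonocyte markers, a set of genes of the cells that carry Slc26a3, overlapped between the groups for 10 of 10 genes, where 7453 of 16956 tested genes overlapped. They summed to 2013 and 1560 CPM in Itch KO libraries and 1805 and 1701 CPM in WT libraries.

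Slc9a3 (ENSMUSG00000036123, chromosome 13, 74121457 to 74169442) had 56.3 and 40.2 CPM in Itch KO libraries, against 3.31 CPM in WT library 1 and 154 CPM in WT library 2. Both Itch KO values stood between the 2 WT values. These CPM came from 458 and 389 counts in Itch KO libraries and 31 and 1894 counts in WT libraries. The WT libraries differed 46.7-fold, and 0.307% of tested genes had a wider gap between them. The log2 fold change was -0.71 (SE 1.53, 95% interval -4.83 to 3.41, edgeR adjusted p = 0.813), and its sign depended on the fit: limma voom gave 0.55, cyclic loess scaling 0.46 and a replicate block 0.85. Without WT library 1, DESeq2 called Slc9a3 lower in Itch KO (log2 fold change -1.69, adjusted p = 0.00134). Without WT library 2, DESeq2 called it higher (log2 fold change 3.83, adjusted p = 3.09e-07). No direction can be given for Slc9a3 from these libraries.

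The 2 WT libraries also stood apart in markers of position along the gut. Small intestine markers summed to 224 and 152 CPM in Itch KO libraries, 424 CPM in WT library 1 and 1032 CPM in WT library 2, and all 8 tested genes were higher in WT library 2 than in WT library 1. Sis, the brush-border disaccharidase of the small intestine, had 0.369 and 0.31 CPM in Itch KO libraries, 1.71 CPM in WT library 1 and 172 CPM in WT library 2. Apoa4 of the same list was at 0 in 3 of 4 libraries. Squamous epithelium markers, as of the anal canal, summed to 27.6 and 34.8 CPM in Itch KO libraries, 816 CPM in WT library 1 and 14.2 CPM in WT library 2, with all 5 tested genes higher in WT library 1. Krt5, a basal keratin, had 0.86 and 3.1 CPM in Itch KO libraries, 138 CPM in WT library 1 and 0.244 CPM in WT library 2. Ivl and Dsg3 of that list were at 0 in WT library 2, and Ivl also in Itch KO library 1. Posterior Hox genes summed to 219 and 146 CPM in Itch KO libraries, 596 CPM in WT library 1 and 57.7 CPM in WT library 2. Hoxc13 was at 0 in 3 libraries, all but WT library 1, and Hoxc10 in both Itch KO libraries. Between the groups, 5 of 8 tested small intestine genes, 3 of 7 posterior Hox genes and 1 of 5 squamous genes were wholly lower in Itch KO. DESeq2 called 5, 2 and 1 of them lower. Over all tested genes 26.0% were wholly lower and 4.76% called lower by DESeq2. The part of sampling position in the values of Slc9a3 and of the other members was not tested.

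**Figure D2:**
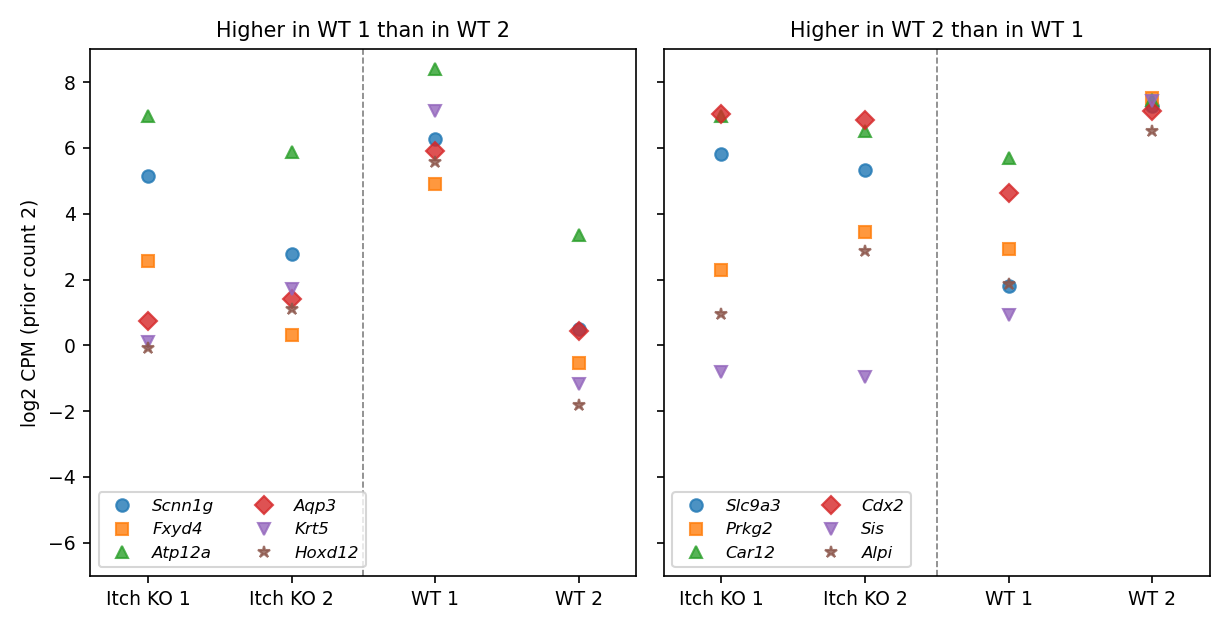
Log2 CPM in each library, with Itch KO libraries left of WT libraries, for 12 genes picked after their values were seen because the WT libraries differ: 6 that are higher in WT library 1 (left) and 6 that are higher in WT library 2 (right). Slc9a3 falls in the right panel beside the small intestine gene Sis, and the sodium channel subunit Scnn1g in the left panel beside the squamous keratin Krt5.

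Cdx2, the caudal-type homeobox factor of intestinal epithelium, was looked up after its values were seen. It had 130 and 115 CPM in Itch KO libraries, 24.3 CPM in WT library 1 and 140 CPM in WT library 2, and so was low in the library that was low for Slc9a3. The promoters of Slc9a3 and Aqp8 are printed because Slc9a3 was the one of the 10 members that differed most between the WT libraries, while Aqp8 is a member whose promoter holds the core letters TTTATNG of a caudal-type homeobox site. Both are RefSeq sequences on GRCm38.p6, from 250 bases before the gene start to 50 after it, on the plus strand, and capitals mark a match.
Slc9a3 (chr13:74121163-74121462): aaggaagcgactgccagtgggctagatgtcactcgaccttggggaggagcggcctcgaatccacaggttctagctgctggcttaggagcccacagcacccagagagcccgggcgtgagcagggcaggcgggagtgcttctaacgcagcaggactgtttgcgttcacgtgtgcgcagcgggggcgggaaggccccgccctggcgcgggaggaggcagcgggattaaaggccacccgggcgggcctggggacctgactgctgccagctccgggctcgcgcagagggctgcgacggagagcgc
Aqp8 (chr7:123462044-123462343): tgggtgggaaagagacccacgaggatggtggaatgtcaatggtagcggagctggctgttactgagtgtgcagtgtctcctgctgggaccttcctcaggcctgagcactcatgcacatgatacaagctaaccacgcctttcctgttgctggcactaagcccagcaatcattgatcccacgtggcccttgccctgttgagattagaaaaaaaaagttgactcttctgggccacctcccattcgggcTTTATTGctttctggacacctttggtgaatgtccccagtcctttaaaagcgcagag
On both strands, TTTATNG occurred in 2 of the 6 member promoters that could be read, those of Aqp8 and Car4, and in 11.3% of 27025 mouse promoters of the same length. The glucocorticoid and mineralocorticoid half-site TGTTCT occurred in 1 of 6, that of Slc26a3, and in 19% of all promoters. The HNF4 element CAAAGTCCA occurred in 0 of 6 and in 0.477% of all promoters. These matches describe letters in the window and not binding. The Slc9a3 window held 0 matches to TTTATNG. Aqp8 and Car4 had 108 and 135 CPM in WT library 1, where Cdx2 was low. They had 61.8 and 116 CPM in WT library 2. A link between Cdx2 and any member was not tested.

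Car4 encodes the membrane-anchored carbonic anhydrase IV, which supplies bicarbonate and protons for exchange at the apical surface of colonocytes. Its level did not separate the groups. Car4 (ENSMUSG00000000805, chromosome 11, 84957786 to 84966044) had 147 and 102 CPM in Itch KO libraries and 135 and 116 CPM in WT libraries, and the Itch KO values spanned the WT values. The log2 fold change was -0.01 (SE 0.22, 95% interval -0.61 to 0.58, edgeR adjusted p = 0.979), with the sign turning positive in 6 of 20 alternative settings, at most to 0.23. The interval still holds changes of a size like those of Slc26a3 and Slc12a2.

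The epithelial sodium channel takes up sodium in the distal colon under the control of aldosterone, and Scnn1a and Scnn1b encode its alpha and beta subunits. Both were lower on average in Itch KO libraries, and neither passed the test. Scnn1a (ENSMUSG00000030340, chromosome 6, 125320659 to 125344943) had 134 and 83.0 CPM in Itch KO libraries and 198 and 125 CPM in WT libraries. Its log2 fold change was -0.58 (SE 0.34, edgeR adjusted p = 0.405), and the groups overlapped by the higher Itch KO and the lower WT library. That value was -0.96 without Itch KO library 1, -0.26 without Itch KO library 2, -0.20 without WT library 1 and -0.88 without WT library 2. Scnn1b (ENSMUSG00000030873, chromosome 7, 121865038 to 121918514) had 44.6 and 12.7 CPM in Itch KO libraries and 56.0 and 42.9 CPM in WT libraries. Itch KO library 2 alone was far below the rest, 3.51-fold under Itch KO library 1. The averages of 28.7 ± 22.6 CPM in Itch KO and 49.5 ± 9.24 CPM in WT gave a log2 fold change of -0.79 (SE 0.64, edgeR adjusted p = 0.521), which was -0.14 without Itch KO library 2 and -1.96 without Itch KO library 1. DESeq2 without Itch KO library 1 called Scnn1b lower (log2 fold change -1.97, adjusted p = 0.00985).

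The gamma subunit Scnn1g was not a member and was looked at after its values were seen, because the channel is built from all 3 subunits. It had 35.4 and 6.61 CPM in Itch KO libraries and 77.0 and 1.22 CPM in WT libraries, a 63.0-fold gap between WT libraries 1 and 2. The alpha and beta subunits differed between the same libraries by log2 gaps of 0.66 and 0.38. All 3 subunits were higher in library 1 of each pair, by gaps of different size, and the gamma subunit was highest in the library that was lowest for Slc9a3.

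Slc26a2 encodes a sulfate transporter that also exchanges chloride and bicarbonate and is abundant in colonocytes, where sulfate is used for mucin. It had the lowest log2 fold change of the 10 members. Slc26a2 (ENSMUSG00000034320, chromosome 18, 61192919 to 61211612) had 323 and 205 CPM in Itch KO libraries and 511 and 450 CPM in WT libraries, and both Itch KO values were below both WT values. The averages were 264 ± 83.3 CPM in Itch KO and 481 ± 43.5 CPM in WT, and the log2 fold change was -0.87 (SE 0.29, 95% interval -1.64 to -0.09, edgeR adjusted p = 0.225). Of the 1680 genes in its own bin of counts per kilobase, 31 had a lower log2 fold change. The DESeq2 call of -0.89 was kept without Itch KO library 1 (adjusted p = 1.05e-06) and lost without Itch KO library 2 (-0.58, adjusted p = 0.108), WT library 1 (-0.78, adjusted p = 0.163) or WT library 2 (-0.99, adjusted p = 0.06).

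Water channels gave the one higher member and one that did not separate. Aqp4, known above all from the endfeet of brain astrocytes, is found in the colon on the basolateral side of surface cells, and Aqp8 is an aquaporin of colonocytes. Aqp4 (ENSMUSG00000024411, chromosome 18, 15389496 to 15410982) had 336 and 207 CPM in Itch KO libraries and 135 and 107 CPM in WT libraries, from 2731 and 2003 counts in Itch KO and 1268 and 1315 counts in WT. Both Itch KO libraries were above both WT libraries. The averages were 271 ± 91.0 CPM in Itch KO and 121 ± 19.9 CPM in WT, and the log2 fold change was 1.16 (SE 0.30, 95% interval 0.36 to 1.96, edgeR adjusted p = 0.171). In its own bin of counts per kilobase, 47 of 1680 genes had a higher log2 fold change. DESeq2 kept its call of Aqp4 without Itch KO library 2 (1.46, adjusted p = 0.000125) and without WT library 1 (1.33, adjusted p = 0.0039), and lost it without Itch KO library 1 (0.76, adjusted p = 0.156) and without WT library 2 (0.96, adjusted p = 0.117). The value was positive in every one of the 20 settings tried, from 0.76 to 1.48.

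Enteric glia and neuron markers summed to 200 and 316 CPM in Itch KO libraries and 175 and 235 CPM in WT libraries, and 7 of those 8 genes were higher in Itch KO library 2 than in Itch KO library 1. Aqp4 was higher in Itch KO library 1. Of the 8, 5 had a negative log2 fold change and the median was -0.31, with 2 genes wholly higher and 1 wholly lower in Itch KO. Over all tested genes 30.0% were wholly higher and 26.0% wholly lower. Vip, the neuropeptide with the highest level in that list and 1 of the 2 higher genes, had 74.0 and 95.6 CPM in Itch KO libraries and 33.1 and 43.1 CPM in WT libraries. The part of glia and neurons in the Aqp4 values was not tested.

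Aqp8 (ENSMUSG00000030762, chromosome 7, 123462291 to 123468004) had 91.9 and 85.2 CPM in Itch KO libraries and 108 and 61.8 CPM in WT libraries. The Itch KO values lay between the WT values. Its log2 fold change of 0.06 (SE 0.30, 95% interval -0.75 to 0.87, edgeR adjusted p = 0.922) turned negative in 4 of 20 alternative settings, among them scaling to pan-epithelial markers (-0.15). Aqp4 and Aqp8 thus differed in their values, at 271 ± 91.0 and 88.6 ± 4.74 CPM in Itch KO against 121 ± 19.9 and 85.0 ± 32.9 CPM in WT, and the difference between their fold changes was not tested.

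**Figure D3:**
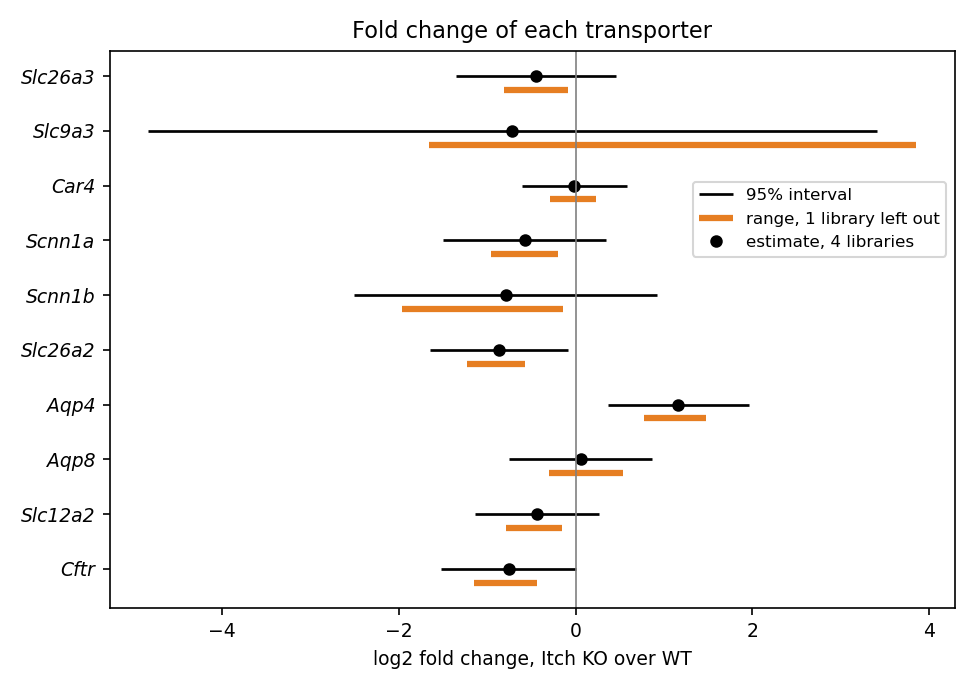
Log2 fold change of Itch KO over WT for each member (points) with its 95% interval from edgeR (black lines) and the range of the value when 1 library is left out (orange lines). Aqp4 at 1.16 and Slc26a2 at -0.87 are the members whose interval leaves out 0, and the interval of Slc9a3 runs from -4.83 to 3.41.

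Both chloride secretion genes were lower in Itch KO libraries, and neither passed the test. Slc12a2 encodes NKCC1, the sodium-potassium-chloride cotransporter of the basolateral membrane. Slc12a2 (ENSMUSG00000024597, chromosome 18, 57878678 to 57946821) had 289 and 188 CPM in Itch KO libraries and 327 and 319 CPM in WT libraries. The WT libraries lay close together, above both Itch KO libraries. The averages of 239 ± 72.0 CPM in Itch KO and 323 ± 5.45 CPM in WT gave a log2 fold change of -0.44 (SE 0.26, edgeR adjusted p = 0.404). It was -0.15 without Itch KO library 2 and -0.78 without Itch KO library 1, where DESeq2 called it lower (-0.80, adjusted p = 0.00664).

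Cftr encodes the cyclic AMP-gated apical chloride channel that is defective in cystic fibrosis and is most expressed in crypts. Cftr (ENSMUSG00000041301, chromosome 6, 18170687 to 18322768) had 144 and 87.9 CPM in Itch KO libraries and 178 and 213 CPM in WT libraries, and both Itch KO values were below both WT values. The averages were 116 ± 39.7 CPM in Itch KO and 196 ± 24.9 CPM in WT, with a log2 fold change of -0.76 (SE 0.28, 95% interval -1.52 to 0.01, edgeR adjusted p = 0.257) and a DESeq2 adjusted p of 0.0802. DESeq2 without Itch KO library 1 called Cftr lower (-1.17, adjusted p = 0.0024), and the edgeR value without Itch KO library 2 was -0.43. Cftr shares exon bases with 1 antisense gene, Gm15592, and no source used here gave the strand setting of the counting, so that reads of the pair cannot be told apart. Crypt base and progenitor markers summed to 966 and 906 CPM in Itch KO libraries and 1147 and 1214 CPM in WT libraries. Of 11 genes, 6 were wholly lower in Itch KO, against 26.0% of all tested genes. DESeq2 called 4 (Lgr5, Axin2, Rnf43 and Znrf3) lower, against 4.76% of all tested genes. The part of crypt cells in the Cftr and Slc12a2 values was not tested.

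Absorption and secretion genes were then set against each other within each library, which removes the scaling between libraries. The mean log2 CPM of the 8 absorption members minus that of the 2 secretion members was -0.59 and -0.63 in Itch KO libraries and -1.24 and -1.07 in WT libraries. Both Itch KO libraries were above both WT libraries, and the group means of -0.61 (SD 0.02) and -1.15 (SD 0.12) differed by 0.54. Taken alone, the absorption mean overlapped between the groups, at 7.08 and 6.38 in Itch KO and 6.68 and 6.96 in WT. The secretion mean was wholly lower in Itch KO, at 7.68 and 7.01 against 7.92 and 8.03 in WT. The higher balance is thus no rise of the absorption genes as a set, of which 6 of 8 had a negative log2 fold change. An exact permutation test of 2 against 2 libraries cannot go below p = 0.333. The balance rested on few genes: without Slc9a3 the difference was 0.38 and the groups were separated by little (-0.41 and -0.48 in Itch KO, -0.54 and -1.11 in WT), and without Slc9a3 and Aqp4 it was 0.15 and the groups overlapped (-0.60 and -0.67 in Itch KO, -0.49 and -1.08 in WT).

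Of the 16 ratios of 1 absorption gene to 1 secretion gene, 5 were wholly higher in Itch KO libraries, 1 was wholly lower and the others overlapped. The log2 ratio of Aqp4 to Cftr was 1.22 and 1.23 in Itch KO libraries and -0.40 and -0.99 in WT libraries, and that of Aqp4 to Slc12a2 was 0.21 and 0.14 in Itch KO and -1.27 and -1.57 in WT. Both ratios had to be wholly higher, because Aqp4 was itself wholly higher and Cftr and Slc12a2 wholly lower. They restate those member levels, and no share over all gene pairs was computed. Car4 to Cftr stood at 0.03 and 0.22 in Itch KO and -0.39 and -0.88 in WT. Slc26a2 to Slc12a2 was the ratio that was lower, at 0.16 and 0.13 in Itch KO and 0.65 and 0.49 in WT. The ratio of Slc26a3 to Cftr, the apical chloride exchanger to the apical chloride channel, overlapped at 0.65 and 0.71 in Itch KO and 0.78 and -0.11 in WT.

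**Figure D4:**
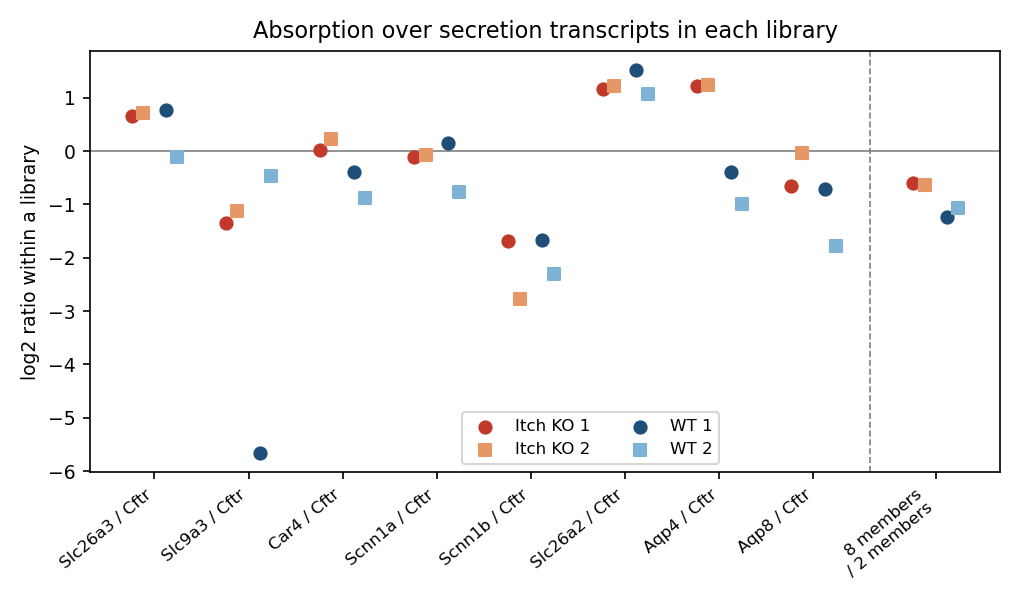
Log2 ratio of each absorption gene to Cftr within each library, and at the right the mean log2 CPM of the 8 absorption members minus that of the 2 secretion members, with 1 point per library and Itch KO points left of WT points. The ratio of Aqp4 to Cftr sits at 1.22 and 1.23 in Itch KO libraries, above both WT libraries at -0.40 and -0.99, which the separate levels of Aqp4 and Cftr already fix. The ratio of Slc9a3 to Cftr spreads widest between the WT libraries.

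Levels between genes were compared per kilobase of exon. In Itch KO libraries the order in mean CPM per kilobase was Car4 (63.4 ± 16.0), Aqp8 (56.0 ± 3.0), Aqp4 (43.5 ± 14.6), Slc26a3 (29.0 ± 9.16), Scnn1a (26.2 ± 8.67), Slc12a2 (21.8 ± 6.59), Slc26a2 (21.3 ± 6.73), Cftr (14.9 ± 5.11), Scnn1b (10.9 ± 8.57) and Slc9a3 (8.76 ± 2.07). In WT libraries Car4 (63.9 ± 6.98) and Aqp8 (53.8 ± 20.8) also led, followed by Slc26a3 (39.5 ± 11.9), Scnn1a (39.1 ± 12.4), Slc26a2 (38.9 ± 3.52), Slc12a2 (29.6 ± 0.499), Cftr (25.2 ± 3.20), Aqp4 (19.4 ± 3.19), Scnn1b (18.8 ± 3.51) and Slc9a3 (14.3 ± 19.4), all SD with n = 2. Aqp4 thus stood in place 3 in Itch KO and place 8 in WT. In Itch KO libraries neighbours in this order differed by less than the larger SD of each pair. In WT libraries the same held except for Slc26a2 against Slc12a2, Slc12a2 against Cftr and Cftr against Aqp4.

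The Itch KO libraries differed from each other in 1 direction for every member. All 10 members were higher in Itch KO library 1 than in Itch KO library 2, by a median log2 gap of 0.65, where the median over all tested genes was 0.04. The WT pair had a median gap of 0.28, with 8 of 10 members higher in WT library 1. Pan-epithelial markers were also higher in Itch KO library 1 for 8 of 8 genes, with a median gap of 0.35, and leukocyte markers were higher there for 1 of 10, with a median gap of -0.29. The log2 gap between the Itch KO libraries lay from 0.48 (Slc9a3) to 0.71 (Cftr) for 8 of the 10 members, with Scnn1b at 1.8 and Aqp8 at 0.11 outside that range. The part of epithelial and leukocyte content in these gaps was not tested.

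The wider transport genes gave a count that moved with single libraries. Of 62 further genes of electrolyte and water transport, 59 were tested and 40 had a negative log2 fold change, with a median of -0.21, where 49.4% of all tested genes were negative. By edgeR the count was 48 without Itch KO library 1 (median -0.40), 31 without Itch KO library 2 (median -0.02), 33 without WT library 1 (median -0.17) and 45 without WT library 2 (median -0.16). No gene passed the edgeR test, 2 were higher and 7 lower at an unadjusted p below 0.05 (10.2% and 9.52% of all tested genes), and DESeq2 called 2 higher and 5 lower, where 5.24% of all tested genes were called higher and 4.76% lower. Between the groups 6 were wholly higher and 19 wholly lower, where 30.0% of all tested genes were wholly higher and 26.0% wholly lower. The DESeq2 median was -0.41 without Itch KO library 1 and -0.03 without Itch KO library 2. It was -0.20 without WT library 1 and -0.19 without WT library 2.

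By DESeq2, Slc4a4 and Nr3c2 fell in Itch KO mucosa, with the smallest adjusted p among the lower transport genes. Slc4a4, the basolateral sodium-bicarbonate cotransporter NBCe1, had 91.7 and 37.3 CPM in Itch KO libraries and 223 and 187 CPM in WT libraries (log2 fold change -1.67, SE 0.46, edgeR adjusted p = 0.186, DESeq2 adjusted p = 0.00167). DESeq2 called Slc4a4 lower also without each library in turn. Nr3c2 encodes the mineralocorticoid receptor through which aldosterone acts on the sodium channel, and had 118 and 57.7 CPM in Itch KO libraries and 240 and 206 CPM in WT libraries (log2 fold change -1.35, SE 0.38, edgeR adjusted p = 0.188, DESeq2 adjusted p = 0.0036). The Nr3c2 call was lost without WT library 1 (DESeq2 adjusted p = 0.0594). Sgk1, an aldosterone-induced kinase that keeps the channel at the surface, had 116 and 93.5 CPM in Itch KO and 155 and 149 CPM in WT (log2 fold change -0.54, SE 0.15, edgeR adjusted p = 0.191, DESeq2 adjusted p = 0.0827). Nedd4l, the ubiquitin ligase of the same family as Itch that removes the channel, had 140 and 152 CPM in Itch KO and 158 and 189 CPM in WT, a log2 fold change of -0.25 (edgeR adjusted p = 0.416).

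Each list held at most 1 call either way or 2 in the case of chloride secretion. DESeq2 called 5.24% of all tested genes higher and 4.76% lower. Among 13 tested genes of electroneutral and bicarbonate transport, DESeq2 called 0 higher and 1 lower (Slc4a4), with a median log2 fold change of -0.18. The 13 genes of the sodium channel and aldosterone response had 0 higher and 1 lower (Nr3c2), with a median of -0.05 that turned to 0.13 without Itch KO library 2 and to 0.07 without WT library 1. The 11 genes of the sodium pump and potassium transport had 0 called in either direction and a median of -0.24. Kcnk5, a potassium channel, had 108 and 63.6 CPM in Itch KO and 149 and 147 CPM in WT (log2 fold change -0.79, SE 0.28, edgeR adjusted p = 0.245). The value for Kcnk5 ran from -1.22 without Itch KO library 1 to -0.44 without Itch KO library 2. It was called lower by DESeq2 without Itch KO library 1 (adjusted p = 0.0021) and by edgeR with pan-epithelial scaling without Cdx2 (adjusted p = 0.0408).

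**Figure D5:**
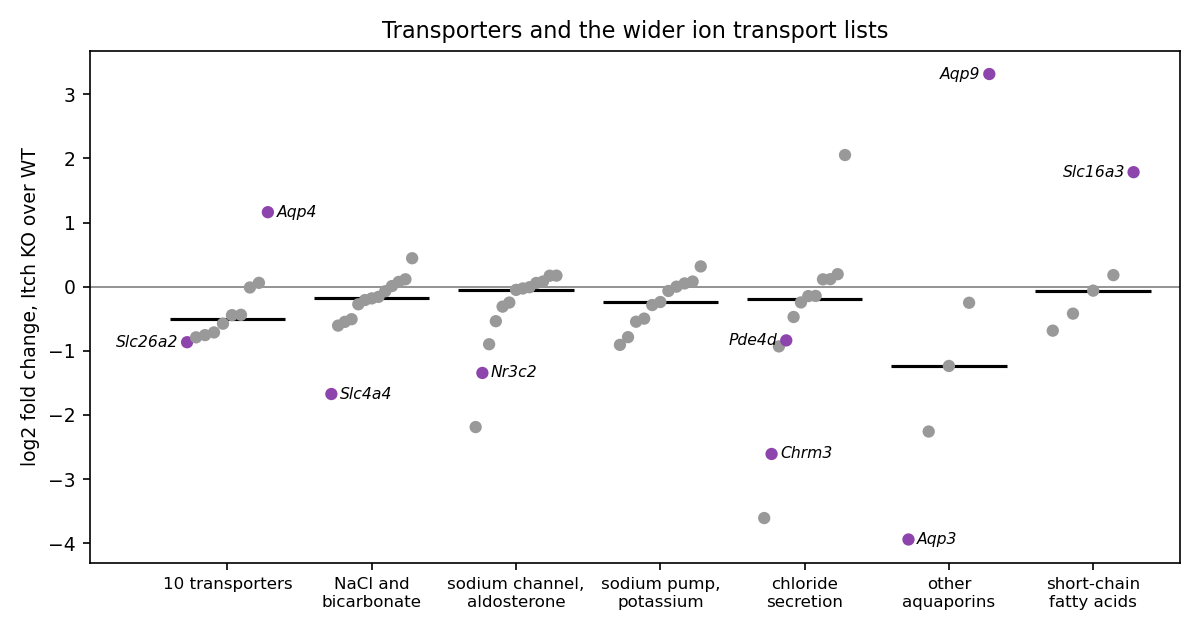
Log2 fold change of Itch KO over WT for the members and for each list of further transport genes, 1 point per gene, with the median of each list as a bar and the genes called by DESeq2 in purple with their names. The 5 other aquaporins spread widest around a median of -1.24, which was -0.29 without WT library 1 and -0.52 without WT library 2, and the median of the 10 members is -0.51.

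Regulators of chloride secretion lay on both sides of 0. Of 12 genes, DESeq2 called 0 higher and 2 lower, and the median log2 fold change was -0.20. The DESeq2 shares over all tested genes were 5.24% higher and 4.76% lower. Chrm3, the muscarinic receptor for acetylcholine, had 0.737 and 2.07 CPM in Itch KO libraries and 8.32 and 9.05 CPM in WT libraries (log2 fold change -2.61, SE 0.69, edgeR adjusted p = 0.176, DESeq2 adjusted p = 0.0453). Pde4d, a phosphodiesterase that breaks down cyclic AMP, had 35.0 and 38.6 CPM in Itch KO and 71.7 and 60.0 CPM in WT (log2 fold change -0.84, SE 0.18, edgeR adjusted p = 0.137, DESeq2 adjusted p = 0.0333). Leaving out any 1 library ended both calls, at DESeq2 adjusted p of 0.164 to 0.627 for Chrm3 and 0.375 to 0.658 for Pde4d. Adora2b, an adenosine receptor that raises cyclic AMP, stood at 11.9 and 44.3 CPM in Itch KO against 4.37 and 9.13 CPM in WT (log2 fold change 2.05, SE 0.81, edgeR adjusted p = 0.273, DESeq2 adjusted p = 0.0883). Its edgeR value ran from 0.83 without Itch KO library 2 to 2.71 without Itch KO library 1, and DESeq2 called it higher without Itch KO library 1 (adjusted p = 0.024) and without WT library 2 (adjusted p = 0.0496). Best2, a chloride and bicarbonate channel of goblet cells looked at after its values were seen, had 95.8 and 24.7 CPM in Itch KO and 91.2 and 20.0 CPM in WT, with library 1 above library 2 in both groups.

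The other aquaporins held 1 gene called higher and 1 called lower by DESeq2, which called 5.24% of all tested genes higher and 4.76% lower. Of 7 listed, 5 were tested, and Aqp2, Aqp5 and Aqp7 were at 0 in some library. Aqp9, a channel for water and small solutes that leukocytes also express, had 8.97 and 25.9 CPM in Itch KO libraries and 2.03 and 1.47 CPM in WT libraries (log2 fold change 3.32, SE 0.74, edgeR adjusted p = 0.151, DESeq2 adjusted p = 0.00151), and DESeq2 lost the call without Itch KO library 2 (adjusted p = 0.677). Like the leukocyte markers, Aqp9 was higher in Itch KO library 2 than in Itch KO library 1, and their part in its value was not tested. Aqp11 was wholly lower at 15.4 and 14.3 CPM in Itch KO and 25.8 and 43.9 CPM in WT (log2 fold change -1.24, SE 0.37, edgeR adjusted p = 0.199). Aqp3, an aquaglyceroporin of squamous and distal epithelium, had 1.47 and 2.48 CPM in Itch KO and 60.4 and 1.14 CPM in WT. The DESeq2 call of Aqp3 as lower (adjusted p = 0.0348) rested on WT library 1, which was also the library with squamous markers, and without that library the edgeR log2 fold change was 0.81.

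Short-chain fatty acids, the main fuel of colonocytes, drive further sodium and water uptake. Of 5 genes of their transport, DESeq2 called Slc16a3 higher and 0 lower, where 5.24% of all tested genes were higher and 4.76% lower. Slc16a3, a lactate exporter of glycolytic cells, had 131 and 174 CPM in Itch KO libraries and 67.0 and 21.8 CPM in WT libraries (log2 fold change 1.79, SE 0.58, edgeR adjusted p = 0.218, DESeq2 adjusted p = 0.0116). DESeq2 lost the call without Itch KO library 2 (adjusted p = 0.29) and without WT library 2 (adjusted p = 0.0508). Slc5a8, the sodium-coupled uptake carrier of these acids, overlapped at 234 and 114 CPM in Itch KO and 263 and 203 CPM in WT.

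For each member the gene with the most similar profile was sought among the other members and the tested transport genes, 68 candidates, by the root-mean-square distance of centred log2 CPM over the 4 libraries. Slc26a3 and Scnn1a were nearest to each other at 0.068. The nearest gene was Adcy6 for Slc12a2 (0.036), Atp1b1 for Car4 (0.041), Kcnk5 for Slc26a2 (0.077), Slc9a2 for Cftr (0.10), Tsc22d3 for Aqp8 (0.13) and Nr3c2 for Scnn1b (0.34). Aqp4 and Slc9a3 had no close companion, with Spint2 at 0.50 and Car12 at 1.37. With 4 libraries these distances are a description of the profiles and not a test of relation.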

How the data were processed

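Mucosal total RNA from mouse colon was sequenced as standard Illumina libraries, per the labels' protocols. The submitters' processing notes name the mm10 (GRCm38) genome, HTSeq 0.6.1, SAMtools 0.1.19, TopHat2 and CASAVA 1.8.2. The authors deposited raw read counts per gene, and whether strand was used or duplicates were removed was not given in the sources used here. The file of WT library 1 listed 19308 genes and each of the others listed 39179, so only the common genes were used. These held 97.3% to 97.7% of the gene counts of the 3 longer tables. HTSeq's summary lines were left out. Reads in no gene came to 18.2% and 18.3% of all reads listed in the Itch KO libraries and 23.0% in WT library 2.

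Counts were filtered with filterByExpr (minimum count 10), scaled by TMM and tested by edgeR 4.0.16 (R 4.3.3) with the quasi-likelihood test on group alone, two-sided, adjusted by Benjamini-Hochberg over all genes tested. Significance was set at 0.05. The fit estimated a biological coefficient of variation of 34.8% and had 2 residual degrees of freedom. CPM are TMM-scaled. Lengths for CPM per kilobase and coordinates came from GENCODE M21 on GRCm38, as the union of a gene's exons. DESeq2 1.42.0, limma 3.58.1 (voom), other scalings and filters, a replicate block and leaving out each library were alternatives. A gene's groups were called separated when both libraries of one lay beyond both of the other.

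The members, lists and tests were chosen with earlier results of these data known. Named beside the members were Itch, 3 genes per transport list with the smallest edgeR p, the most expressed gene of each list, the marker genes with the widest range, and the nearest gene of each member. Genes named outside this rule were Cdx2, Scnn1g, Best2, the genes drawn to show how the WT libraries differ, the markers given by name beside a list's calls or zeros, and the genes listed at 0, all chosen after their values were seen. 1 gene that the rule names is not reported here.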

Additional observations from a re-analysis of the deposited data

How the results depend on the processing

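Aqp4 was positive and Slc26a2, Cftr, Slc12a2, Slc26a3, Scnn1a and Scnn1b were negative under all 20 alternatives. The edgeR count of genes called, 0, held under every edgeR and voom alternative chosen with the design. DESeq2 called 889 genes higher and 807 lower, with 1 member each way. Alternatives chosen after seeing the data moved these counts. Pan-epithelial scaling without Cdx2 called 464 higher and 397 lower by edgeR, with 1 member higher (Aqp4, adjusted p = 0.00508) and 2 lower (Slc26a2, adjusted p = 0.00309, and Cftr, adjusted p = 0.0367). DESeq2 called 667 higher and 562 lower without Itch KO library 1 (0 and 4 members), 158 and 280 without Itch KO library 2 (1 and 0 members), 809 and 361 without WT library 1 (1 each), and 584 and 309 without WT library 2 (1 and 0). With Cdx2 kept, pan-epithelial scaling moved the median log2 fold change of all genes to -0.19, against 0.01, so that members are better read relative to it, and without Cdx2 it was -0.07.

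Signs turned for some values. Slc9a3 (-0.71) was 0.46 with cyclic loess, 0.55 with voom, 0.85 with the replicate block, and up to 3.85 (edgeR) and 3.83 (DESeq2) without WT library 2, with leave-one-out values from -1.66. Car4 (-0.01) was 0.016 with library totals and 0.025 with cyclic loess, and ran from -0.29 to 0.23 in edgeR with a library left out, with 0.22 without Itch KO library 2 and 0.10 without WT library 1 in DESeq2. Aqp8 (0.06) was -0.15 with pan-epithelial scaling, ran from -0.29 to 0.54 in edgeR with a library left out, and was -0.011 without Itch KO library 1 and -0.33 without WT library 2 in DESeq2. Bsg was -0.031 with pan-epithelial scaling, and Aqp3 ran from -4.92 to 0.81 in edgeR with a library left out and was 0.79 in DESeq2 without WT library 1. The cause was not tested, beyond the library left out.

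The difference of absorption and secretion members (0.54) was 0.28 from summed CPM, 0.30 without Aqp4 and Aqp8, 0.66 without Slc26a2, 0.70 with Cftr alone and 0.38 with Slc12a2 alone as secretion. It was 0.38 without Slc9a3 and 0.15 without Slc9a3 and Aqp4, both chosen after seeing the data, and 0.46 to 0.63 with a library left out.

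The labels give both groups the same replicate numbers, and same-numbered libraries deviated together by a correlation of 0.05 over 16956 genes. The main fit left the numbers out, although so low a correlation cannot show that same-numbered libraries share nothing else. Of the 10 members, 10 were higher in Itch KO library 1 and 8 in WT library 1. With the replicate block, edgeR called 0 genes higher and 0 lower, and 1322 were higher and 1477 lower at an unadjusted p below 0.05, with Aqp4 higher and Slc26a2, Slc26a3 and Scnn1a lower among the members. Precision was limited by having 2 libraries a group and by the spread between them, and the part of depth was not tested.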
